A study of Homo sapiens with 13 samples.

Results

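The G2 and M phase genes are a set of 46 human genes whose transcripts build up late in the cell cycle, and 41 of them stand among the 9706 genes of the deposited tables. The set was drawn up by name, from cyclins and mitotic kinases to spindle, cytokinesis and chromosome proteins. Each member was found by its gene name in the union of the 3 tables of genes that differ from 4i embryonic stem cells. NUSAP1, SMC4, ANP32E, CTCF and RANGAP1 were not among these rows and were not analysed here. Of the 41 members found, 40 stood in the table of d8 DZ+PGCLC against 4i ESC, 7 in that of DM+PGCLC and 0 in that of N3+PGCLC.

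RNA was sequenced in 10 libraries, 2 in each of 5 groups, all from WIS2, an established human embryonic stem cell line. The study asked how primordial germ cell-like cells (PGCLC) progress towards germline commitment and what the transcription factor DMRT1 does there. The 4i ESC group was kept on irradiated mouse embryonic fibroblasts with LIF, bFGF, TGFβ and inhibitors of the kinases GSK3, ERK, p38 and JNK, and was sorted for the surface phosphatase TNAP. N3+PGCLC were induced with BMP2 at 500 ng/ml, SCF at 100 ng/ml, EGF at 50 ng/ml and ROCK inhibitor at 10 µM, and were sorted as positive for TNAP and a NANOS3 reporter. For DM+PGCLC, the same induction gave way on day 3 to 100 ng/ml activin A and 20 µM retinoic acid, with SCF and EGF, for 6 more days. Their titles call them DMRT1-positive, while the sort named in the labels used TNAP and NANOS3. These 3 groups carried NANOS3-tdTomato and DMRT1-Venus reporters and no transgene. The d4 and d8 DZ+PGCLC groups came from a different WIS2 derivative, with a DAZL-tdTomato reporter and transgenes for SOX17, switched on by dexamethasone, and DMRT1, switched on by doxycycline. They were sorted as DAZL-positive on day 4 or day 8. They received dexamethasone with BMP2, SCF, EGF and ROCK inhibitor on the first day, then both drugs with retinoic acid, activin A, SCF and EGF. The labels give 2 days for this second step and do not say what followed up to day 8, nor which clone was used. No library of this derivative without induction was analysed here. Derivative, induced factors, the drugs themselves, cytokine schedule and time in culture therefore cannot be told apart in comparisons of DZ+PGCLC with the other groups.

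Passage from G2 into mitosis is driven by CDK1 bound to cyclin A or cyclin B, which the phosphatase CDC25C activates and which the kinases PLK1 and Aurora A reinforce. Exit from mitosis follows when the anaphase-promoting complex, with CDC20 and the ubiquitin-conjugating enzyme UBE2C, marks cyclin B for destruction. Many of these genes are held off in quiescent and G1 cells by the DREAM complex and switched on in G2 by complexes of B-MYB, encoded by MYBL2, and FOXM1, which like DREAM act through a promoter element called the CHR. Many of these promoters also hold CCAAT boxes, which are bound by the activator NF-Y. Human primordial germ cells divide by mitosis after they arise, before male germ cells arrest and female germ cells enter meiosis.

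Most promoter windows of the members carry one or both of these elements, and 5 windows are printed because they span the behaviours described below. PLK1 was low by day 4 and stayed there, CCNB2 and MKI67 fell again by day 8, HMMR rose in part from day 4 to day 8, and KIF2C has neither element in its window. RefSeq windows of 300 bases, from 250 bases before to 50 bases from the annotated start on, matched 37 of the 46 members in build GRCh38.p14. RefSeq gave 35116 windows for 27305 genes, and the first window given for each gene was used. TTK, ANP32E, AURKA, PIMREG, TPX2, HMGB2, RACGAP1, FAM83D and UBE2C had no window. Capitals mark each CHR and each CCAAT box. The CHR was searched as TTTGAA on either strand or as the palindrome TTCGAA. The CCAAT box was searched as CCAAT on either strand. CCNB2 lies on the plus strand at chr15:59104896-59105195, PLK1 on the plus strand at chr16:23678639-23678938, MKI67 on the minus strand at chr10:128126374-128126673, HMMR on the plus strand at chr5:163460382-163460681 and KIF2C on the plus strand at chr1:44739587-44739886, each printed 5′ to 3′ in the gene's direction.
CCNB2: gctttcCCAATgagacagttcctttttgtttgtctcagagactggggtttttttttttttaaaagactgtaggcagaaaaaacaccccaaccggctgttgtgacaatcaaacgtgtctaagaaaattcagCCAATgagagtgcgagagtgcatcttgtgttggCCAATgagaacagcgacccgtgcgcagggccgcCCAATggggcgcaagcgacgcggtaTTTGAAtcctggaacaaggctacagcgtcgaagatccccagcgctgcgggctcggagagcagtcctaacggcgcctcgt
PLK1: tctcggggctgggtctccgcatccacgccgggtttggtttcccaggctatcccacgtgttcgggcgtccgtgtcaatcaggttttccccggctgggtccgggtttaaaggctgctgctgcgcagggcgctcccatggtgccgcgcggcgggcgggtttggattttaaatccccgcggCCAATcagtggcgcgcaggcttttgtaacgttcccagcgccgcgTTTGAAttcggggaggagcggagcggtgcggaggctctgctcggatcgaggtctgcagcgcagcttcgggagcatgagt
MKI67: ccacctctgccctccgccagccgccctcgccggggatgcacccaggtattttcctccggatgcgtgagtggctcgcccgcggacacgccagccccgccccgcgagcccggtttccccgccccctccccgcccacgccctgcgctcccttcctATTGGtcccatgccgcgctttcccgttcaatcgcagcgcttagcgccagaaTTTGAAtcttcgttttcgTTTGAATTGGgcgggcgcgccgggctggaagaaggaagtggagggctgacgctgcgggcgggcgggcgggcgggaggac
HMMR: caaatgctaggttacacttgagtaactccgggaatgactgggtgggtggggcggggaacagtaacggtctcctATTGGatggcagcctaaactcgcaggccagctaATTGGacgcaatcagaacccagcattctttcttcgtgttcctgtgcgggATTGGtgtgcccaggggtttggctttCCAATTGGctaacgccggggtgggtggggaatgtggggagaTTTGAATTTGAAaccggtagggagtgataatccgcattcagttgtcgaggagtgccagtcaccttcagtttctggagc
KIF2C: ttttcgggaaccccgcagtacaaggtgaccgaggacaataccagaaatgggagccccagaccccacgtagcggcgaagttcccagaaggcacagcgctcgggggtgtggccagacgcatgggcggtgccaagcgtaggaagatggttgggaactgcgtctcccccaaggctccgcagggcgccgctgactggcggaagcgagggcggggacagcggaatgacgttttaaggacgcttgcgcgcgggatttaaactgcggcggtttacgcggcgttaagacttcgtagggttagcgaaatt

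A CHR was found in 24 of the 33 listed members with a window (72.7%), against 16.6% of 27305 gene promoters in the RefSeq table and 12.7% of the 7433 listed genes that had one. A CCAAT box was found in 26 of the 33 (78.8%), against 35.7% of all promoters, and both elements in 22 (66.7%), against 6.58%. In 11 of the 33, a CHR began 15 to 40 bases before the start, a stretch chosen after the positions were seen that holds a CHR in 1.53% of all promoters. The CHR of CCNB2 and of PLK1 began 29 bases before the start, as did one in CKS2, MKI67 and PSRC1. In CCNB2, which encodes cyclin B2, the 3 CCAAT boxes nearest the start were spaced 33 bases apart. One CHR of MKI67 shared a base with a CCAAT box, the only such overlap among the 33. Neither element was found in the windows used for CDC25C, CKAP2, KIF2C, LBR and TACC3. Other starts of these genes were not searched, so an element there is not excluded. Such matches describe the letters of these windows and not binding of any factor.

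**Figure D1:**
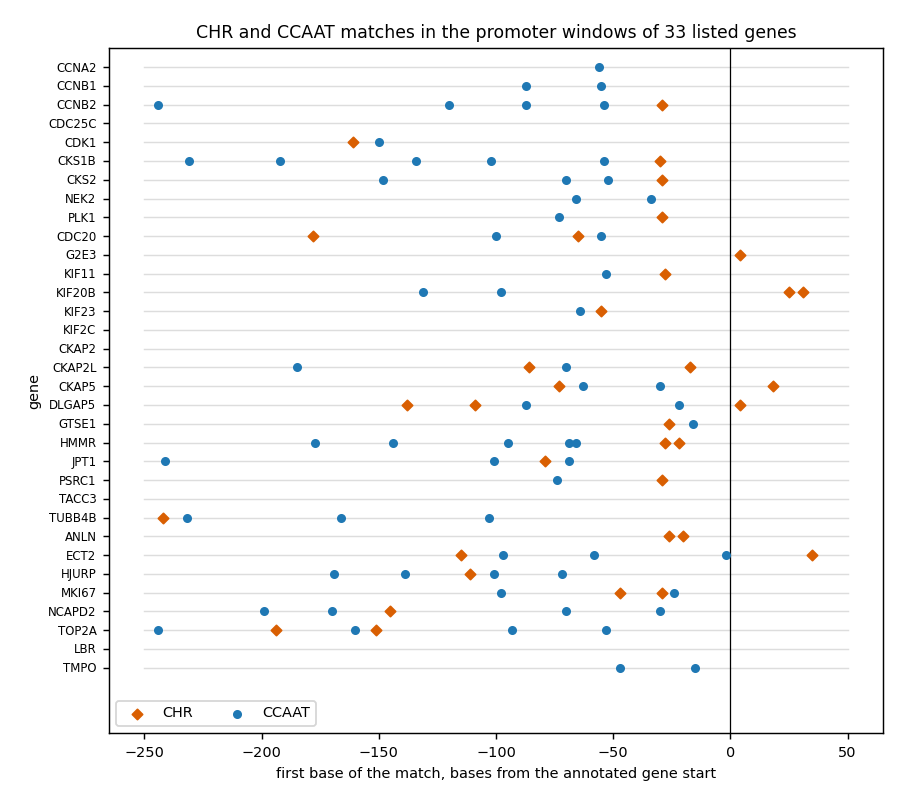
Each row is the promoter window of one of 33 listed members, with the horizontal axis in bases from the annotated gene start. Diamonds mark the first base of a CHR and circles that of a CCAAT box, and in 11 genes a CHR lies 15 to 40 bases before the start.

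Levels are given as log2(RPKM + 0.1), a scale that corrects for transcript length, so that levels of different genes can be compared. All 41 members were at or above 1 RPKM in every library of 4i ESC, N3+PGCLC and DM+PGCLC. In d4 DZ+PGCLC replicate 2 and d8 DZ+PGCLC replicate 1, CKAP2L alone was below 1 RPKM, and in d8 DZ+PGCLC replicate 2 MKI67 alone. The mean log2 level over the members was 5.62 and 5.35 in 4i ESC, 5.18 and 5.22 in N3+PGCLC, 5.35 and 5.24 in DM+PGCLC, 3.73 and 3.55 in d4 DZ+PGCLC, and 3.02 and 3.06 in d8 DZ+PGCLC. The 4 DZ+PGCLC libraries were thus lower than the other 6, and those of day 8 lower than those of day 4. In 4i ESC, replicate 1 was the higher library for 36 of the 41 members, with a median gap of 0.31, whereas 49.7% of all listed genes at 1 RPKM or more leaned that way. Replicate 1 was also the higher library for 31 members in DM+PGCLC (75.6%), against 50.6% of such genes, and for 29 in d4 DZ+PGCLC (70.7%), against 49.4%.

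**Figure D2:**
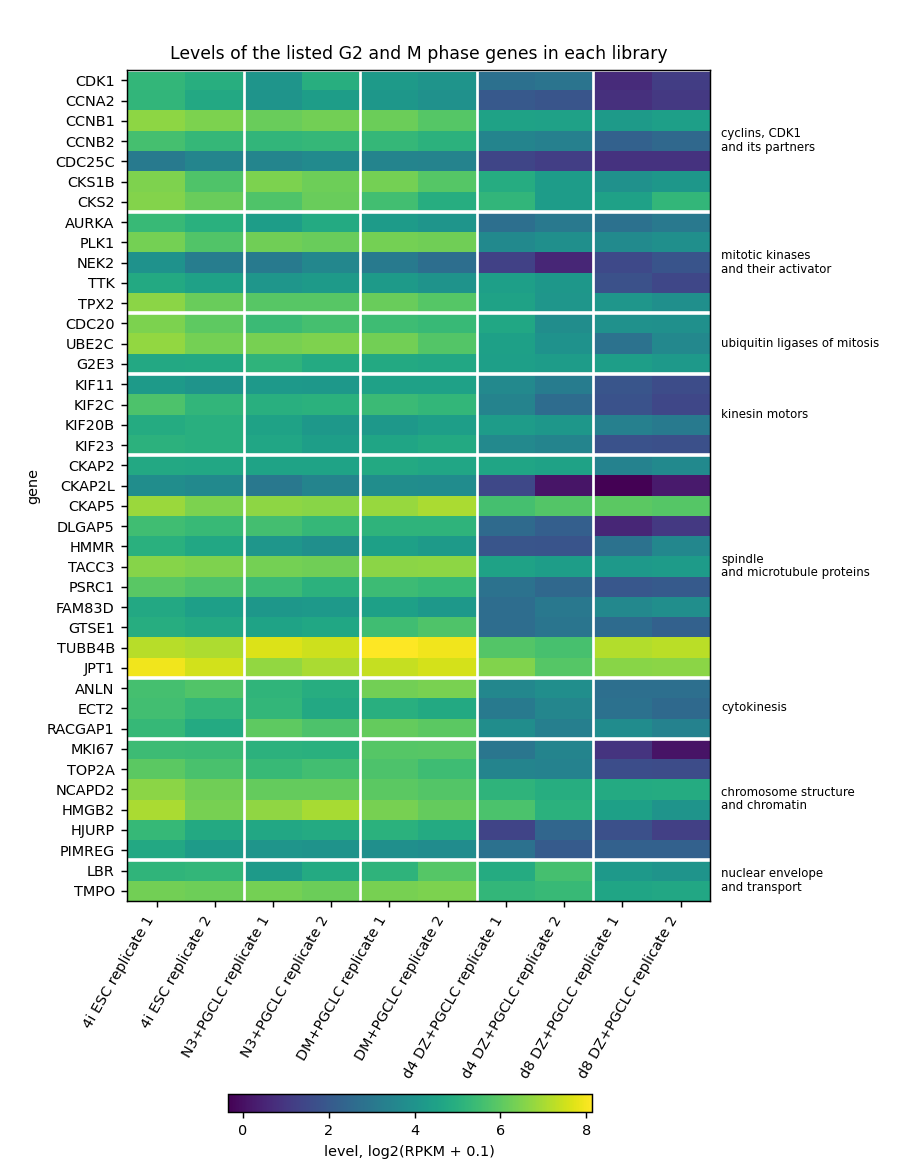
Rows are the 41 listed members grouped by role, columns the 10 libraries, and colour the level as log2(RPKM + 0.1). Most rows darken in the 4 DZ+PGCLC columns on the right, with TUBB4B, G2E3 and CKAP5 among those that change least by day 8.

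Depth was not given, but steps between low values put it between 0.665 and 1.14 times that of 4i ESC replicate 1, with d4 DZ+PGCLC replicate 2 lowest and d8 DZ+PGCLC replicate 1 highest. For some libraries, d8 DZ+PGCLC replicate 2 among them, another depth matched almost as well, so these estimates are rough. Limma fits each gene over the 5 groups and draws on all listed genes for the spread. With it, a gene was called lower or higher when its Benjamini-Hochberg adjusted p was under 0.05 and its fold change over 2. Germ cell markers split by group. DAZL stood between 1.27 and 3.51 in the DZ+PGCLC libraries and between -3.32 and -2.45 in the others. DMRT1 reached 12.01 to 12.42 on the log2 scale in DZ+PGCLC, where it was induced from a transgene. Without DMRT1, the summed RPKM of the 9 other listed germ cell markers ran from 52.9 to 59.4 in 4i ESC, 295 to 513 in N3+PGCLC, 555 to 664 in DM+PGCLC, 124 to 160 in d4 DZ+PGCLC and 220 to 228 in d8 DZ+PGCLC. This sum still held SOX17, the other transgene of DZ+PGCLC, so it may hold transgene reads there. With DMRT1, the sum ran from 4240 to 5710 in DZ+PGCLC and from 55.8 to 748 in the other groups. NANOS3 was at 3.25 or more in N3+PGCLC and DM+PGCLC and at -1.49 or less in DZ+PGCLC, where d8 DZ+PGCLC replicate 1 was listed at 0 RPKM, and TFAP2C, which marks early germ cells, was called lower in both DZ+PGCLC groups than in 4i ESC. The DZ+PGCLC libraries therefore carried DAZL without the NANOS3 and TFAP2C levels of the earlier PGCLC groups. These 2 genes do not stand for the whole list, which includes the induced SOX17 and DMRT1. Of its 10 listed genes, 6 were called higher and 2 lower than in 4i ESC at day 4, and 5 and 2 at day 8. Of all listed genes, 17.3% and 24.6% were called higher and lower at day 4, and 28.5% and 27.4% at day 8. Summed RPKM of 8 pluripotency markers ran from 1560 to 1740 in 4i ESC and from 95.1 to 211 in DZ+PGCLC. Summed RPKM of 8 listed of 9 fibroblast and stroma markers ran from 481 to 885 in 4i ESC, 400 to 523 in N3+PGCLC, 101 to 330 in DM+PGCLC, 150 to 159 in d4 DZ+PGCLC and 45.5 to 47.8 in d8 DZ+PGCLC. Summed RPKM of 5 listed of 7 endoderm markers ran from 2.52 to 11.6 in 4i ESC, 72.4 to 415 in N3+PGCLC, 13.2 to 22.5 in DM+PGCLC and 3.06 to 3.28 in d4 DZ+PGCLC, with 8.49 to 10.3 in d8 DZ+PGCLC. The sum of 7 neural markers ran from 351 to 380 in 4i ESC, 244 to 277 in N3+PGCLC, 446 to 535 in DM+PGCLC, 27.6 to 37.3 in d4 DZ+PGCLC and 114 to 133 in d8 DZ+PGCLC. At day 4 against N3+PGCLC, where 24.1% of all listed genes were called lower and 15.5% higher, 4 of 5 endoderm markers were called lower, and of the neural markers 3 of 7 were called lower and 1 higher. From day 4 to day 8, where 8.3% and 15.4% of all listed genes were called lower and higher, 3 of 7 neural markers were called higher and 0 lower, and 1 of 5 endoderm markers higher and 0 lower. The part of other cells in the results was not tested. In bulk RNA, fewer cells in G2 and M phase and less of each RNA per cell cannot be told apart.

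The first comparison asked whether the members moved when 4i ESC became N3+PGCLC. All 41 differences were under 2-fold. With limma, 0 members were called lower, where 12.3% of all listed genes were, and 0 higher, where 13.8% were. At an unadjusted p under 0.05, 11 members were lower and 2 higher. The median difference over the 41 members was -0.38 on the log2 scale. HMMR, the hyaluronan-mediated motility receptor that acts at the spindle, differed by -0.90 ± 0.25 (SE; limma adjusted p = 0.0285), and RACGAP1, a GTPase-activating protein of the cytokinesis machinery, by 0.81 ± 0.24, the largest differences in each direction. Leaving out 4i ESC replicate 2 or N3+PGCLC replicate 2 gave 2 members called lower. Since 0 members stood in the table of this contrast, the count follows in part from how the genes were listed.

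In DM+PGCLC, after the move to activin A and retinoic acid, few members were called against 4i ESC. CKS2, a small CDK-binding subunit, and AURKA, the Aurora A kinase, were called lower, 2 of 41 where 21.1% of all listed genes were called lower, and 0 were called higher, where 23% of all were. At an unadjusted p under 0.05, 11 members were lower and 4 higher, and 8 and 4 of these passed at an adjusted p under 0.05. CKS2 stood at 6.56 and 6.17 in 4i ESC, 5.78 and 6.17 in N3+PGCLC, 5.55 and 4.94 in DM+PGCLC, 5.23 and 4.34 in d4 DZ+PGCLC and 4.50 and 5.24 in d8 DZ+PGCLC, and its DM+PGCLC libraries differed from 4i ESC by -1.12 ± 0.38 on the log2 scale. AURKA stood at 5.37 and 5.03 in 4i ESC, 4.36 and 4.82 in N3+PGCLC and 4.31 and 4.08 in DM+PGCLC, a difference of -1.01 ± 0.23. The DM+PGCLC libraries were below both 4i ESC libraries for each gene, and the d4 and d8 DZ+PGCLC libraries of CKS2 overlapped each other and those of DM+PGCLC. The call of CKS2 was lost in 10 of the 17 alternative settings, some of which left out only a library of a group not compared. That of AURKA was lost in 3, among them a pseudocount of 1. Both genes stood in the authors' table for this same contrast, so nothing is read from their calls. Both calls were lost without 4i ESC replicate 1 or without DM+PGCLC replicate 2. The count without these was 0, and it was 5 after median centring or quantile normalization, which added CCNA2, CDC20 and CDK1.

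Between N3+PGCLC and DM+PGCLC, 2 members were called higher, where 13.9% of all listed genes were, and 0 lower, where 12.1% were; at an unadjusted p under 0.05, 7 were higher and 0 lower. ANLN encodes anillin, an actin-binding scaffold of the cleavage furrow. It stood at 5.61 and 5.82 in 4i ESC, 5.20 and 4.92 in N3+PGCLC, 6.31 and 6.41 in DM+PGCLC, 3.57 and 3.83 in d4 DZ+PGCLC and 2.75 and 2.74 in d8 DZ+PGCLC, with a rise from N3+PGCLC to DM+PGCLC of 1.29 ± 0.15 on the log2 scale (limma adjusted p = 0.00115). GTSE1, a microtubule-binding protein of G2 and S phase, stood at 4.91 and 4.74 in 4i ESC, 4.55 and 4.68 in N3+PGCLC, 5.52 and 5.78 in DM+PGCLC, 2.66 and 2.95 in d4 DZ+PGCLC and 2.59 and 2.27 in d8 DZ+PGCLC, with a rise of 1.03 ± 0.18 (limma adjusted p = 0.00507). For both genes the DM+PGCLC libraries were above those of N3+PGCLC, and the DZ+PGCLC libraries below all others. GTSE1, unlike ANLN, stood in the authors' table of DM+PGCLC against 4i ESC. The DM+PGCLC libraries thus took part in listing it, and nothing is read from its call. Quantile normalization took both below a fold of 2, at 0.97 and 0.77 on the log2 scale. GTSE1 was also lost without N3+PGCLC replicate 1, at 0.97, and without DM+PGCLC replicate 2, at 0.90. Across these 3 groups without a transgene, MKI67, which encodes the proliferation antigen Ki-67, stood at 5.47 and 5.41 in 4i ESC, 5.08 and 5.03 in N3+PGCLC and 5.88 and 5.90 in DM+PGCLC.

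In d4 DZ+PGCLC most members were already low. Against N3+PGCLC, a comparison that shares no library with the selection of the day 8 table, 31 of 41 members were called lower (75.6%), where 24.1% of all listed genes were, and 0 higher, where 15.5% were. The d4 and d8 DZ+PGCLC groups share derivative, induced factors and drugs, and 40 of the 41 members were listed through day 8. The count is therefore not free of that selection and is a description. The median difference over members was -1.69 on the log2 scale and that of all listed genes -0.08. Against 4i ESC, whose libraries took part in that selection, 33 were called lower, where 24.6% of all listed genes were, and 0 higher, where 17.3% were. Not a single member had an unadjusted p under 0.05 in the higher direction in either comparison. The rest of this account of day 4 takes the members by role.

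All 7 members of the group of cyclins, CDK1 and its partners were called lower at day 4 than in N3+PGCLC. CDK1, the kinase that starts mitosis, stood at 5.24 and 4.95 in 4i ESC, 4.08 and 4.97 in N3+PGCLC, 4.25 and 4.03 in DM+PGCLC, 2.77 and 2.90 in d4 DZ+PGCLC and 0.69 and 1.18 in d8 DZ+PGCLC. Its day 4 difference from N3+PGCLC was -1.69 ± 0.31 on the log2 scale (limma adjusted p = 0.0034). CCNA2, which encodes cyclin A2, stood at 5.21 and 4.75 in 4i ESC, 4.04 and 4.37 in N3+PGCLC, 4.13 and 3.92 in DM+PGCLC, 2.01 and 1.88 in d4 DZ+PGCLC and 0.82 and 1.03 in d8 DZ+PGCLC. The DZ+PGCLC libraries of both genes lay below all others, and those of day 8 below those of day 4. CCNB1, which encodes cyclin B1, stood at 6.68 and 6.44 in 4i ESC, 6.19 and 6.32 in N3+PGCLC, 6.22 and 5.90 in DM+PGCLC, 4.54 and 4.48 in d4 DZ+PGCLC and 4.27 and 4.43 in d8 DZ+PGCLC. CCNB2 stood at 5.62 and 5.28 in 4i ESC, 5.21 and 5.30 in N3+PGCLC, 5.28 and 5.10 in DM+PGCLC, 3.46 and 3.34 in d4 DZ+PGCLC and 2.27 and 2.49 in d8 DZ+PGCLC. Cyclin B1 thus stayed near its day 4 level at day 8 while cyclin B2 went lower, with a step of -1.02 on the log2 scale, just past a fold of 2. CDC25C, the phosphatase that activates CDK1, stood at 3.12 and 3.50 in 4i ESC, 3.49 and 3.71 in N3+PGCLC, 3.47 and 3.44 in DM+PGCLC, 1.42 and 1.21 in d4 DZ+PGCLC and 0.90 and 0.87 in d8 DZ+PGCLC, with both day 8 libraries below both of day 4. CKS1B and CKS2, the CDK subunits, were -1.73 ± 0.29 and -1.19 ± 0.38 from N3+PGCLC at day 4, and the call of CKS2 was lost without either N3+PGCLC library, without d4 DZ+PGCLC replicate 2 and under both other scalings.

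Of the 5 mitotic kinases and their activator, 4 were called lower at day 4 than in N3+PGCLC. PLK1, the Polo-like kinase of centrosome maturation and mitotic entry, stood at 6.36 and 5.82 in 4i ESC, 6.28 and 6.19 in N3+PGCLC, 6.36 and 6.30 in DM+PGCLC, 3.65 and 3.87 in d4 DZ+PGCLC and 3.69 and 3.85 in d8 DZ+PGCLC. AURKA stood at 2.75 and 3.08 in d4 DZ+PGCLC and 2.79 and 3.07 in d8 DZ+PGCLC, against 4.08 or more in the other libraries. The day 4 and day 8 libraries of both kinases overlapped. TPX2, the spindle protein that activates Aurora A, differed by -1.59 ± 0.22 from N3+PGCLC at day 4, and NEK2, a centrosome kinase, by -2.44 ± 0.36. TTK, the kinase that starts the spindle assembly checkpoint, was the exception, at 4.79 and 4.51 in 4i ESC, 4.10 and 4.27 in N3+PGCLC, 4.27 and 4.00 in DM+PGCLC, 4.44 and 4.12 in d4 DZ+PGCLC and 1.73 and 1.44 in d8 DZ+PGCLC. Its day 4 libraries lay within the range of the groups without a transgene, and its day 8 libraries far below them.

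CDC20, which activates the anaphase-promoting complex, stood at 6.45 and 6.03 in 4i ESC, 5.43 and 5.63 in N3+PGCLC, 5.49 and 5.37 in DM+PGCLC, 4.69 and 3.81 in d4 DZ+PGCLC and 3.94 and 3.91 in d8 DZ+PGCLC. UBE2C, the complex's ubiquitin-conjugating enzyme, stood at 6.74 and 6.36 in 4i ESC, 6.37 and 6.49 in N3+PGCLC, 6.30 and 5.85 in DM+PGCLC, 4.47 and 3.96 in d4 DZ+PGCLC and 2.84 and 3.60 in d8 DZ+PGCLC. Both were called lower at day 4 than in N3+PGCLC, by 1.28 ± 0.28 and 2.21 ± 0.30 in size on the log2 scale, though the CDC20 call was lost without d4 DZ+PGCLC replicate 2, after quantile normalization and in a fit to the 4 libraries compared. In that last fit the day 4 calls of CDK1 and CKAP2L against N3+PGCLC were lost too. G2E3, a ubiquitin ligase named for its G2 expression, stood at 4.77 and 4.80 in 4i ESC, 5.14 and 4.82 in N3+PGCLC, 4.78 and 4.73 in DM+PGCLC, 4.43 and 4.33 in d4 DZ+PGCLC and 4.41 and 4.21 in d8 DZ+PGCLC. It was not called in any of the 8 comparisons. All 3 cytokinesis genes were called lower at day 4, with RACGAP1 at -2.33 ± 0.24 from N3+PGCLC, ECT2, an activator of RhoA at the furrow, at -1.69 ± 0.23, and ANLN at -1.36 ± 0.15.

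Among chromosome and chromatin proteins, all 6 listed members were called lower at day 4 than in N3+PGCLC. TOP2A, the topoisomerase that untangles sister chromatids, stood at 5.98 and 5.69 in 4i ESC, 5.35 and 5.56 in N3+PGCLC, 5.74 and 5.47 in DM+PGCLC, 3.47 and 3.39 in d4 DZ+PGCLC and 1.64 and 1.63 in d8 DZ+PGCLC. MKI67 stood at 2.96 and 3.46 in d4 DZ+PGCLC and 0.90 and 0.07 in d8 DZ+PGCLC. Both fell between day 4 and day 8 as well, with no overlap of the libraries. HJURP, the chaperone that loads the centromeric histone CENP-A, was -2.86 ± 0.36 from N3+PGCLC at day 4, HMGB2, an HMG-box protein, -1.47 ± 0.30, PIMREG -1.57 ± 0.26, and the condensin subunit NCAPD2 -1.07 ± 0.15. The call of NCAPD2 was lost after median centring, after quantile normalization and without d4 DZ+PGCLC replicate 2. The 2 listed nuclear envelope genes, LBR, the lamin B receptor, and TMPO, which encodes the lamina-associated LAP2 proteins, were not called at day 4. LBR stood at 5.19 and 5.26 in 4i ESC, 4.26 and 4.81 in N3+PGCLC, 5.15 and 5.88 in DM+PGCLC, 4.87 and 5.61 in d4 DZ+PGCLC and 4.24 and 4.03 in d8 DZ+PGCLC. Its d4 DZ+PGCLC libraries overlapped those of 4i ESC and DM+PGCLC and lay above those of N3+PGCLC.

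Motors and spindle proteins were more mixed. Of 4 kinesins, KIF2C, which takes microtubules apart at their ends, was called lower at day 4 than in N3+PGCLC, by 1.98 ± 0.29 in size. KIF23, a kinesin of the central spindle, was called lower than in 4i ESC, with -1.499 ± 0.15, but missed a fold of 2 against N3+PGCLC, with -0.98 ± 0.15. KIF11, which pushes the spindle poles apart, and KIF20B, a kinesin of late cytokinesis, were not called in either day 4 comparison. Of 11 listed spindle and microtubule proteins, 8 were called lower than in N3+PGCLC, namely DLGAP5, PSRC1, CKAP2L, HMMR, TACC3, TUBB4B, GTSE1 and FAM83D, with differences from -3.06 to -1.33. The largest difference was that of DLGAP5, also known as HURP, which stabilises microtubules near chromosomes, at 5.51 and 5.36 in 4i ESC, 5.60 and 5.30 in N3+PGCLC, 5.16 and 5.16 in DM+PGCLC, 2.57 and 2.22 in d4 DZ+PGCLC and 0.55 and 1.06 in d8 DZ+PGCLC. CKAP5, a microtubule polymerase, stood at 6.84 and 6.45 in 4i ESC, 6.68 and 6.63 in N3+PGCLC, 6.80 and 7.05 in DM+PGCLC, 5.64 and 5.84 in d4 DZ+PGCLC and 6.00 and 5.89 in d8 DZ+PGCLC. CKAP2 was level between day 4 and N3+PGCLC, with a difference of 0.02 ± 0.13, and JPT1 was not called, with -0.69 ± 0.24.

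By day 8, 37 of 41 members were called lower than in 4i ESC, where 27.4% of all listed genes were, and 0 higher, where 28.5% were. This contrast put 40 of the members into the tables, so the count is a description and nothing is read from it. MKI67 had the largest difference, -4.95 on the log2 scale or 31.0-fold, followed by DLGAP5 at -4.63, TOP2A at -4.20, CDK1 at -4.16 and CCNA2 at -4.06. The smallest differences were those of TUBB4B at 0.04, G2E3 at -0.48, CKAP5 at -0.70, FAM83D at -0.87 and LBR at -1.09. TUBB4B was the member not listed through this contrast, so a small difference follows from its listing. LBR lay just inside the fold of 2 and FAM83D just outside it, and LBR was lost without either 4i ESC or either d8 DZ+PGCLC library. The calls of LBR, CKAP2 and JPT1 were also lost under median centring and under quantile normalization. Those of CKS2 and JPT1 were lost without 4i ESC replicate 1, and that of CKS2 also without d8 DZ+PGCLC replicate 1. Against DM+PGCLC, 35 members were called lower at day 8, where 27.5% of all listed genes were, and 0 higher, where 28.1% were. Since the same day 8 libraries listed 40 of the members, nothing is read from this count either. TUBB4B, CKAP5, JPT1, FAM83D, G2E3 and CKS2 were those not called.

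The 2 days were then set side by side. Both differences use the same 4i ESC libraries, so their likeness is not a result. Of the 41 members, 31 were called lower than 4i ESC on both days, 6 on day 8 alone, 2 on day 4 alone and 2 on neither. Of all 9706 listed genes, 18.1% were called lower on both days, 9.25% on day 8 alone, 6.5% on day 4 alone and 66.1% on neither, and the members' split is a description, since the day 8 contrast listed them. Those of day 8 alone were TTK, KIF11, KIF20B, CKAP2, LBR and TMPO. Those of day 4 alone were TUBB4B and FAM83D, and CKAP5 and G2E3 were called on neither day.

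**Figure D3:**
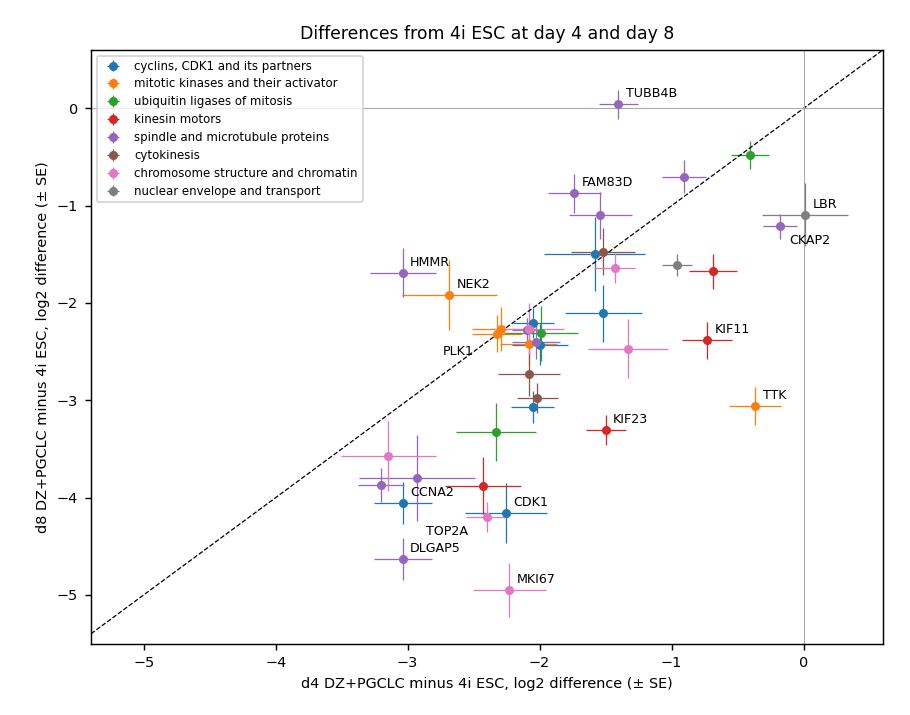
Each point is one listed member, with its log2 difference from 4i ESC at day 4 on the horizontal axis and at day 8 on the vertical axis, bars giving 1 SE from limma and colours the role. Points on the dashed line are equal on both days; MKI67, TTK and KIF11 lie below it, and HMMR and TUBB4B above it.

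For the 37 members at least 1 log2 unit below 4i ESC at day 8, the share of that difference already present at day 4 was taken on the log2 scale. The median share was 76.2%, with quartiles of 57.1% and 91.8%. Over all 2890 listed genes with such a difference the median was 84.9%, with quartiles of 50.2% and 116%. The share was below 50% in 7 members, from 50% to under 90% in 20, and 90% or more in 10, of which 7 were at or above 100%. The 7 lowest were LBR at -1.28%, TTK at 11.9%, CKAP2 at 14.6%, KIF11 at 30.6%, KIF20B at 40.8%, MKI67 at 45.0% and KIF23 at 45.4%, so that all but one of the 4 kinesins were among them. CDK1 stood at 54.2%, TOP2A at 57.1%, CCNB2 at 66.8%, CCNA2 at 74.9%, CCNB1 at 92.7%, PLK1 at 100.4% and AURKA at 100.8%. Leaving out one library in turn kept the share of PLK1 between 95.6% and 105%, of CDK1 between 51.2% and 57.6% and of TTK between 6.73% and 17.1%. That of LBR ran from -35.1% to 32.6%. NEK2 at 139.8%, JPT1 at 139.9% and HMMR at 179.9% had the highest shares, and of these HMMR alone passed the test between the days. The share carries the error of both differences and was given no test.

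From day 4 to day 8 in DZ+PGCLC, 13 of 41 members were called lower (31.7%), where 8.3% of all listed genes were, and 2 higher, where 15.4% were. The day 8 libraries took part in listing 40 of the 41 members, so nothing is read from these counts against the shares of all genes, and the adjusted p of single members below comes from genes listed in part by these libraries. The median of all listed genes in this contrast was 0.19 on the log2 scale, and that of the members -0.59. MKI67 fell 6.60-fold, by 2.72 ± 0.28 on the log2 scale (limma adjusted p = 0.001005). TTK fell 6.49-fold, by 2.70 ± 0.20 (limma adjusted p = 0.00038). CDK1 fell by 1.90 ± 0.31 (limma adjusted p = 0.00446). KIF23 stood at 5.11 and 4.98 in 4i ESC, 4.66 and 4.38 in N3+PGCLC, 4.64 and 4.80 in DM+PGCLC, 3.62 and 3.47 in d4 DZ+PGCLC and 1.78 and 1.71 in d8 DZ+PGCLC. It fell by 1.80 ± 0.15 (limma adjusted p = 0.000566). TOP2A fell by 1.80 ± 0.16 (limma adjusted p = 0.000627). The libraries of the 2 days did not overlap for any of these 5 genes. KIF11, DLGAP5, KIF2C, HMGB2, LBR, CKAP2, CCNA2 and CCNB2 were the other 8 called lower, with differences from -1.66 to -1.02. A further 5 had an adjusted p under 0.05 with a fold under 2, namely UBE2C, KIF20B, ANLN, PSRC1 and TMPO. The count was 9 without d8 DZ+PGCLC replicate 1, and the calls near a fold of 2, those of CCNA2, CCNB2, CKAP2, HMGB2 and LBR, were lost there, while KIF20B passed. KIF2C, HMGB2 and LBR were lost without d8 DZ+PGCLC replicate 2. CCNA2, CCNB2 and CKAP2 were also lost with a pseudocount of 1 and without d4 DZ+PGCLC replicate 1.

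TUBB4B and HMMR went the opposite way. TUBB4B, a beta-tubulin, stood at 7.20 and 7.09 in 4i ESC, 7.69 and 7.47 in N3+PGCLC, 8.12 and 7.94 in DM+PGCLC, 5.84 and 5.64 in d4 DZ+PGCLC and 7.14 and 7.24 in d8 DZ+PGCLC. Its day 4 libraries lay below those of 4i ESC, and its day 8 libraries overlapped them. The rise from day 4 was 1.45 ± 0.15 on the log2 scale (limma adjusted p = 0.00108). TUBB4B was listed through DM+PGCLC alone, where both libraries lay above 4i ESC, and not through d8 DZ+PGCLC. A day 8 level near that of 4i ESC thus follows from how it was listed, and nothing is read from it. HMMR stood at 5.04 and 4.73 in 4i ESC, 4.08 and 3.88 in N3+PGCLC, 4.45 and 4.26 in DM+PGCLC, 1.86 and 1.83 in d4 DZ+PGCLC and 2.83 and 3.57 in d8 DZ+PGCLC. It rose by 1.35 ± 0.25 from day 4 (limma adjusted p = 0.00707), to a day 8 level still below all libraries of the groups without a transgene. Without d8 DZ+PGCLC replicate 2 the rise of HMMR was 0.98, under a fold of 2. FAM83D, which recruits casein kinase to the spindle, stood at 4.76 and 4.42 in 4i ESC, 4.11 and 4.24 in N3+PGCLC, 4.46 and 4.16 in DM+PGCLC, 2.67 and 3.03 in d4 DZ+PGCLC and 3.61 and 3.82 in d8 DZ+PGCLC. Its libraries of the 2 days did not overlap, with a difference of 0.87 ± 0.20 (limma adjusted p = 0.0159) that missed a fold of 2.

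**Figure D4:**
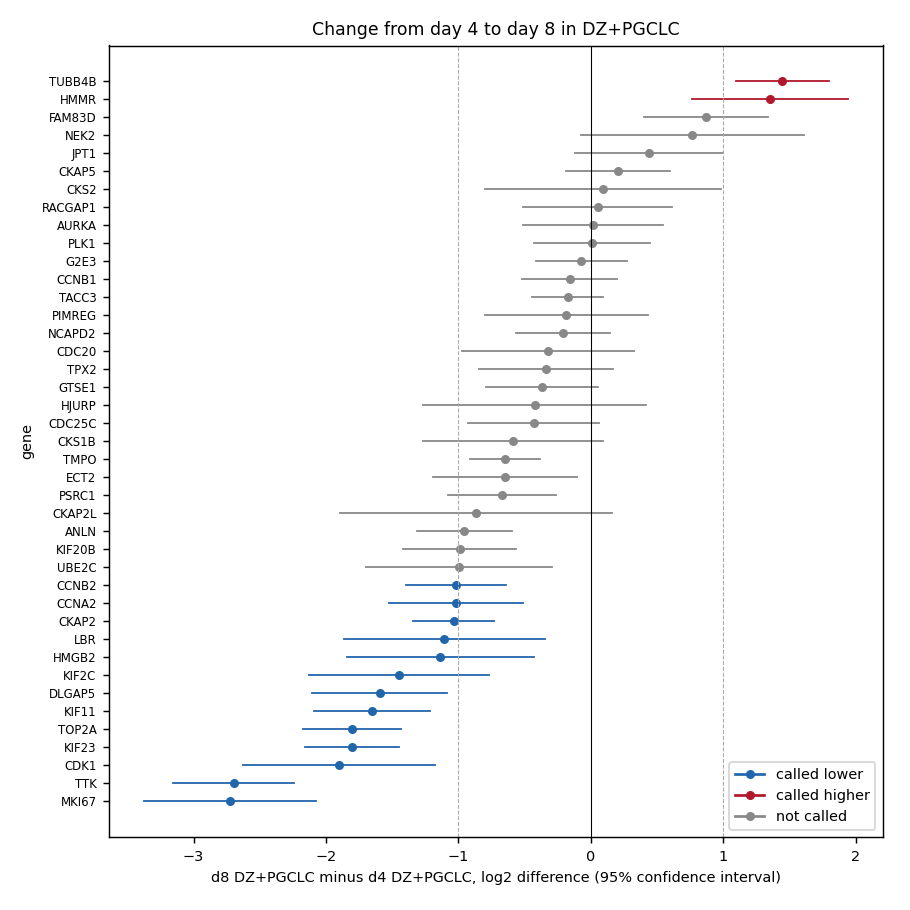
Listed members are ranked by their log2 difference of d8 DZ+PGCLC minus d4 DZ+PGCLC, with bars for the 95% confidence interval from limma, blue for called lower, red for called higher and grey for not called. MKI67 and TTK lie near -2.7, PLK1 and AURKA at 0, and HMMR and TUBB4B above 1.

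In the same 4 days, 8 members differed by at most 0.2 on the log2 scale, namely PLK1, AURKA, CCNB1, CKS2, RACGAP1, TACC3, PIMREG and G2E3. The difference of PLK1 was 0.01, with a 95% confidence interval from -0.43 to 0.45, that of AURKA 0.02, from -0.51 to 0.55, and that of CCNB1 -0.16, from -0.52 to 0.20, so a change of 2-fold lay outside each interval. For CKS2 the interval ran from -0.80 to 0.98 and nearly reached a fold of 2. By role, 3 of 4 kinesins were called lower from day 4 to day 8, 3 of 6 chromosome proteins, 3 of 7 cyclins and partners, 1 of 5 kinases, 2 of 11 spindle proteins, 1 of 2 nuclear envelope genes, 0 of 3 genes of the ubiquitin pathway and 0 of 3 cytokinesis genes, where 8.3% of all listed genes were. The promoter elements were also counted against these calls. Both the CHR and the CCAAT box were present in 7 of 11 members called lower with a window, in 13 of 20 not called, and in HMMR and TUBB4B, the 2 called higher. PLK1 and MKI67, printed above, each had a CHR 29 bases before the start.

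Regulators of these genes were taken from lists of the pathway. Of 13 DREAM, MYB-MuvB and FOXM1 genes, 5 were listed. MYBL2 stood at 6.46 and 6.22 in 4i ESC, 7.91 and 7.38 in N3+PGCLC, 7.50 and 7.65 in DM+PGCLC, 4.24 and 3.72 in d4 DZ+PGCLC and 2.74 and 2.53 in d8 DZ+PGCLC. B-MYB transcripts were called higher in N3+PGCLC and DM+PGCLC than in 4i ESC, by 1.30 and 1.23 on the log2 scale, and lower in both DZ+PGCLC groups. FOXM1 stood at 5.24 and 5.05 in 4i ESC, 4.95 and 4.97 in N3+PGCLC, 5.26 and 5.47 in DM+PGCLC, 3.62 and 3.31 in d4 DZ+PGCLC and 1.83 and 0.97 in d8 DZ+PGCLC, with day 8 libraries 2.06 below those of day 4 (limma adjusted p = 0.00228). FBXO5, the EMI1 inhibitor of the anaphase-promoting complex, stood at 4.42 and 4.03 in 4i ESC, 3.67 and 3.42 in N3+PGCLC, 3.76 and 3.25 in DM+PGCLC, 2.18 and 2.23 in d4 DZ+PGCLC and 1.75 and 2.41 in d8 DZ+PGCLC. All 3 genes were called lower at day 4 than in N3+PGCLC, and MYBL2 and FOXM1 again at day 8 than at day 4. Of the 5 listed genes of the DREAM, MYB-MuvB and FOXM1 list, 2 were thus called lower at day 4 than in N3+PGCLC, where 24.1% of all listed genes were, 1 higher, where 15.5% were, and 2 were not called, with a median difference of -0.18. The one called higher was LIN37, a subunit of the DREAM and MYB-MuvB complexes, by 1.07 on the log2 scale. TFDP2, a partner of E2F factors, was called higher at day 4 than in 4i ESC, by 1.60, and lower at day 8 than at day 4, with -1.01. RBBP4, a histone-binding subunit, was not called in any of the 8 comparisons. LIN37, TFDP2 and RBBP4 were named after their values were seen.

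CDK inhibitors varied across the groups. CDKN1A, which encodes p21, stood at 7.15 and 6.52 in 4i ESC, 2.28 and 2.80 in N3+PGCLC, 4.52 and 3.32 in DM+PGCLC, 5.69 and 5.61 in d4 DZ+PGCLC and 6.97 and 6.99 in d8 DZ+PGCLC. It was called lower in N3+PGCLC and DM+PGCLC than in 4i ESC, higher at day 4 than in N3+PGCLC, by 3.11 on the log2 scale, and higher again at day 8 than at day 4, by 1.33. The day 8 level was not called different from 4i ESC. CDKN2A, which encodes p16 and ARF, stood at 4.10 and 4.85 in 4i ESC, -0.56 and 0.69 in N3+PGCLC, 2.96 and 1.77 in DM+PGCLC, 4.76 and 4.38 in d4 DZ+PGCLC and 4.39 and 4.68 in d8 DZ+PGCLC. CDKN2B, which encodes p15, stood at 0.47 and 1.84 in 4i ESC, -1.98 and -1.83 in N3+PGCLC, 3.22 and 0.85 in DM+PGCLC, 0.26 and 0.09 in d4 DZ+PGCLC and 2.19 and 1.70 in d8 DZ+PGCLC. CDKN2A was called lower in N3+PGCLC and DM+PGCLC than in 4i ESC and was not called against 4i ESC in either DZ+PGCLC group, while the 2 DM+PGCLC libraries of CDKN2B lay far apart. Among the 12 listed CDK inhibitors and G1 cyclins, CDKN2C lay furthest above 4i ESC in DM+PGCLC and in both DZ+PGCLC groups. Its log2 differences were 2.78 in DM+PGCLC, 2.96 at day 4 and 2.80 at day 8. CDKN2C was named after its values were seen.

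**Figure D5:**
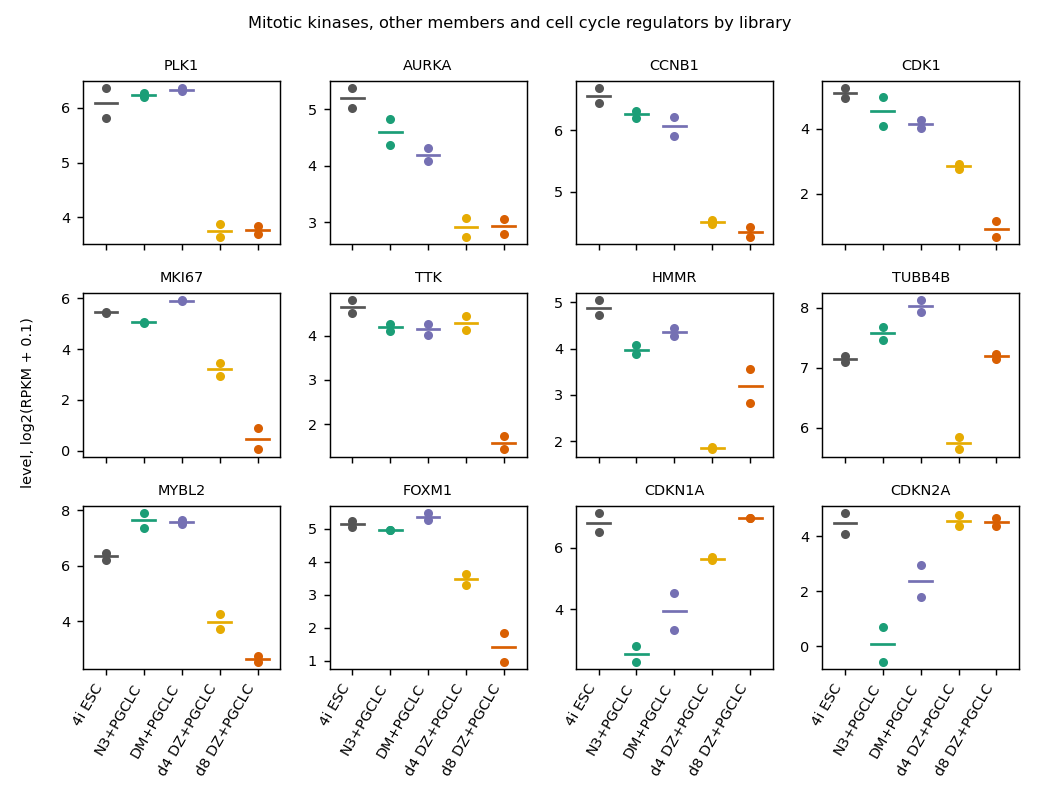
Each panel is one gene, with a point for each library, a bar for the mean of the 2 libraries and levels as log2(RPKM + 0.1) on a vertical axis of its own. PLK1, AURKA and CCNB1 are at one low level on both DZ+PGCLC days. CDK1, MKI67 and FOXM1 fall in steps, TTK falls at day 8, and HMMR and TUBB4B are higher at day 8 than at day 4. CDKN1A rises from N3+PGCLC to d8 DZ+PGCLC.

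Other cell cycle genes gave the setting. Like the members, they stand in the tables only if they differed from 4i ESC, mostly in d8 DZ+PGCLC. At day 4 against N3+PGCLC, where 24.1% of all listed genes were called lower, 13 of 15 kinetochore and chromosomal passenger genes were called lower (median difference -1.98), 13 of 15 other mitotic motors and cytokinesis genes (-2.07), 22 of 29 S phase genes (-1.60), 7 of 13 genes of the G2 checkpoint (-1.17), 5 of 11 condensin and cohesin genes (-0.95) and 3 of 6 genes of the anaphase-promoting complex and its regulators (-1.01). None of these 6 lists had a member called higher there, with limma. From day 4 to day 8, where 8.3% of all listed genes were called lower, 7 of the 15 kinetochore genes were, 4 of the 15 motors, 4 of the 29 S phase genes, 3 of the 11 condensin and cohesin genes, 1 of the 13 checkpoint genes and 0 of the 6 anaphase-promoting complex genes. In the checkpoint list, whose median difference was 0.27, GADD45B, a stress-induced gene, was called higher, by 2.55. These lists too were listed mostly through the day 8 libraries, so nothing is read from these counts against the share of all genes. Of the 12 listed CDK inhibitors and G1 cyclins, 1 was called lower and 3 higher at day 4 than in N3+PGCLC, where 15.5% of all listed genes were called higher, with a median difference of 0.55. From day 4 to day 8, 1 was called lower and 3 higher, where 8.3% and 15.4% of all listed genes were. Differences there ran from -2.13 for E2F2 to 1.92 for CDKN2D, with a median of 0.71. Nothing is read from these counts either.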

How the data were processed

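RNA-seq libraries of 5 groups with 2 replicates each were used; 3 CUT&RUN samples were not analysed here. The replicates are described as independent in the study's methods. Reads were trimmed with Trim Galore and aligned with STAR to GRCh38, per the submitters' processing notes and the study's methods. The authors deposited log2(RPKM + 0.1) values per library, in 3 tables of genes that passed their edgeR test of one group against 4i ESC, so that a gene appears only if it differed from 4i ESC. Their own fold changes and FDR columns and their lists of enriched terms were not used. Counts and library totals were not used here, so no counting interval is given.

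The union of the tables held 9706 genes. The model used limma 3.58.1 in R 4.3.3 with an intensity trend, 5 groups and 5 residual degrees of freedom, and Benjamini-Hochberg adjustment over all 9706 genes. A gene was called at an adjusted p under 0.05 and a fold over 2. Fold changes are on the log2(RPKM + 0.1) scale, which understates changes of low genes. The test was tested on simulated data. The 8 comparisons share libraries, so their results are not independent. Alternatives were a pseudocount of 1, a filter that kept 8116 genes at 1 RPKM in 2 libraries, a fit to the 4 libraries compared, median centring, quantile normalization, no intensity trend, a replicate block, and leaving out each library.

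Members and lists were chosen with earlier results of these data known. Values in every library are given for CDK1, its cyclins and other core regulators, for the 5 largest and 5 smallest differences of day 8 from 4i ESC, for members called higher, for those called lower in N3+PGCLC or DM+PGCLC, and for the 5 largest falls from day 4 to day 8. Other members given with single values were chosen after their values were seen. Promoter windows are from RefSeq (GRCh38.p14).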

Additional observations from a re-analysis of the deposited data

Results flagged for a closer look

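The limma contrast of d8 minus d4 DZ+PGCLC compares the differences from 4i ESC on the 2 days. Of the 13 members called lower and 2 called higher in it, 7 are given here. On the log2 scale the day 8 level lay below that of day 4 by -2.723 for MKI67, -2.697 for TTK, -1.904 for CDK1, -1.805 for KIF23 and -1.801 for TOP2A, and above it by 1.349 for HMMR and 1.446 for TUBB4B. In each of these genes both libraries of one day lay beyond both of the other. These are the 5 largest falls and both rises among the members called in this contrast, so they were picked by the values given here. The day 8 libraries also took part in listing 40 of the 41 members, so the values are a description and support nothing further. Groups of 2 libraries are too small for a check of single stray samples.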

How the results depend on the processing

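With 2 libraries a group, calls near a fold of 2 depended on single libraries and on scaling. No result changed direction past the test. Members called lower numbered 30 to 33 at day 4 and 34 to 37 at day 8 against 4i ESC, 9 to 14 from day 4 to day 8, 28 to 35 at day 8 against DM+PGCLC and 27 to 31 at day 4 against N3+PGCLC across the settings that kept all libraries of the groups compared. The median day 4 share ran from 72.3% to 79.1% as single libraries were left out and from 68.2% to 78.5% under the other settings, lowest with quantile normalization. Small counts moved more. The count of 2 lower in DM+PGCLC than in 4i ESC was 1 with a pseudocount of 1, with the 4 libraries alone, without the intensity trend and with the replicate block, and 5 with median centring or quantile normalization. The count of 2 higher from day 4 to day 8 was 1 with the 4 libraries alone. The count of 2 higher in DM+PGCLC than in N3+PGCLC was 1 with the 4 libraries alone or median centring and 0 with quantile normalization, and the members' median there went from 0.12 to -0.07 and -0.15. At day 4 against N3+PGCLC, 1 member, LBR, was called higher with quantile normalization. Leaving out one library at a time gave 0 to 2 lower and 0 to 1 higher in N3+PGCLC against 4i ESC, 0 to 3 lower and 0 to 1 higher in DM+PGCLC against 4i ESC, 1 to 3 higher from day 4 to day 8, 1 to 3 higher in DM+PGCLC against N3+PGCLC and 0 to 1 higher at day 4 against N3+PGCLC. The cause was not tested. Replicate numbers were not treated as pairs in the main fit. Correlations of replicate deviations ran from -0.22 to 0.19, with 2 of 10 pairs over 0.1. These cannot show whether libraries of the same number were prepared together. With the replicate block the count for DM+PGCLC against 4i ESC was 1, since CKS2 was lost, and no other count of members changed. Median centring moved the median of all genes by 0.46 at day 8 against DM+PGCLC and by 0.26 at day 4 against N3+PGCLC, where the members' medians became -1.75 and -1.43. Over all listed genes, fitting the 4 libraries alone lowered the counts for N3+PGCLC against 4i ESC from 1196 to 467 lower and from 1335 to 435 higher, those for DM+PGCLC against N3+PGCLC from 1170 to 216 and from 1347 to 469, and the genes higher at day 4 than in N3+PGCLC from 1507 to 930. Without 4i ESC replicate 1 the counts for N3+PGCLC against 4i ESC were 774 and 833, and without DM+PGCLC replicate 2 the genes lower in DM+PGCLC than in N3+PGCLC numbered 671. From day 4 to day 8, quantile normalization raised the 806 lower genes to 1252, and a pseudocount of 1 took the 1493 higher genes to 871. Without d8 DZ+PGCLC replicate 1 or 2 these counts were 482 and 472 lower and 912 and 786 higher.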
